A study of Rattus norvegicus with 39 samples.

Results

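D1-MSNs are the medium spiny neurons of the nucleus accumbens (NAc) that carry the D1 dopamine receptor. The comparison described here is between 5 IP libraries from D1-Cre females given repeated ketamine in diestrus and 5 from D1-Cre females given saline in the same stage. The members were chosen by the titles of the samples alone, as every library labelled female, D1, diestrus and IP with either treatment, which gave 10 of the 39 libraries in the series. All rats were heterozygous for Cre and carried a virus that makes an HA-tagged ribosomal protein only in cells with Cre, so an antibody against HA pulls down the polyribosomes of those cells with the mRNA they hold. Each library came from the NAc of 1 rat. Ketamine-treated rats received 6 injections of 10 mg/kg racemic ketamine, 4 or 5 days apart, each timed to diestrus, and their controls received saline on the same schedule. All rats of both groups also had 1 saline session at the start, and all were returned to the test chamber without an injection 4 days after the final treatment and killed 30 min later. The labels give no age. Per the study's methods, the ketamine-treated rats that were sequenced had shown a sensitized locomotor response, so the ketamine libraries describe responders only, and rats of a group came from several litters.

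Ketamine blocks the NMDA type of glutamate receptor, and given repeatedly it can enhance the locomotor response of rodents to the drug. In the study this was seen in females and not in males. MSNs are inhibitory projection neurons that use GABA, and the D1 class responds to dopamine through a receptor that raises cAMP. The mRNA on polyribosomes, the translatome, is the part of a cell's mRNA that is engaged with ribosomes, so a difference here may lie in the amount of an mRNA or in how much of it is on ribosomes, and the assay cannot tell these apart. Diestrus is the longer stage of the rat cycle in which estradiol is low, and proestrus is the stage in which it peaks.

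Total counts per library ranged from 18271271 to 23530675 in the saline group and from 18836806 to 23454882 in the ketamine group, so neither group was the deeper. The 200 genes with the highest counts took between 24.8% and 25.6% of the counts in each library. Log2 levels correlated across genes between every pair of the 10 libraries with Pearson's r from 0.983 to 0.991. The first 2 principal components held 20.9% and 19.1% of the variance, and neither separated the treatments. Ketamine library 36 and saline library 3 lay at one end of the first component (scores of -26.6 and -17.5), with saline library 11, ketamine library 28 and ketamine library 4 at the other (19.7, 15.7 and 12.1). Gene symbols could be paired with 1966 of the 23978 gene identifiers, those that come first in the numbering of the identifiers, and the remaining genes are given by identifier. Drd1, Pdyn, Tac1, Chrm4 and the opioid receptor genes are among those not analysed here by name.

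The D1 label could be checked from the D2 side. Adora2a, an adenosine receptor gene that marks D2-MSNs, stood at 174 ± 25.7 CPM (read count scaled to library size, here over all libraries of the series; SD, n = 5) in the saline libraries and at 187 ± 29.6 CPM in the ketamine libraries, against 946 ± 81.1 CPM in the saline libraries of diestrus D2-Cre rats. Every one of the 10 D1 libraries was below every one of the 10 diestrus D2 libraries, whose lowest value was 455 CPM. Gad1, which makes GABA, was at 1124 ± 61.5 and 1119 ± 46.6 CPM in the saline and ketamine D1 libraries. Markers of other cells were present at lower levels, and none of those that could be looked up was at 0 in every library. The sum of 4 astrocyte markers ranged from 124 to 149 CPM with saline and from 121 to 156 CPM with ketamine. The sum of 3 oligodendrocyte lineage markers ranged from 169 to 238 and from 177 to 237 CPM, that of 2 microglia markers from 1.42 to 2.31 and from 1.34 to 2.43 CPM, and that of 2 endothelial and mural markers from 3.01 to 6.33 and from 2.95 to 5.65 CPM. For 3 interneuron markers the sum ranged from 348 to 568 and from 290 to 737 CPM. These were higher than in the diestrus D2 libraries. Sst, the somatostatin gene, was at 383 ± 83.0 CPM with saline and 420 ± 170 CPM with ketamine in D1 libraries, against 135 ± 21.9 and 137 ± 38.5 CPM in D2 libraries, and Nos1, the neuronal nitric oxide synthase gene, was at 29.6 and 31.0 CPM against 8.7 and 6.5 CPM. For both genes all 10 D1 libraries were above all 10 D2 libraries, and which cells this RNA came from was not tested. All of these sums overlapped between the treatments. In material of this kind fewer cells of a type and less RNA per cell cannot be told apart.

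Repeated ketamine in diestrus was followed by few differences in the D1 translatome. Of 13214 genes tested, 3 (0.0227%) were differentially expressed at an adjusted p under 0.1, and all 3 were lower with ketamine. Those 3 have no symbol paired with them, are moderately expressed, and differed by about the same amount. At an unadjusted p under 0.05, there were 352 genes (2.66%), 182 higher (1.38%) and 170 lower (1.29%), and there were 207 without surrogate variables and 214 with blocks of 8 library numbers in the model. Genes were tested by the quasi-likelihood method of edgeR, with p adjusted after Benjamini and Hochberg, and the model held 2 surrogate variables, which are patterns estimated from the libraries themselves to stand for variation that the treatment does not account for. The count of 3 called genes became 0 with 1 or no surrogate variable, in a model of all 39 libraries and with blocks of 8 library numbers. It became 10 by DESeq2 with 2 surrogate variables, the 3 genes among them.

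For ENSRNOG00000008915, the normalised level was 84.4, 63.6, 72.7, 76.4 and 70.1 CPM in saline libraries 3, 11, 19, 27 and 35, and 48.8, 63.3, 51.2, 46.5 and 78.4 CPM in ketamine libraries 4, 12, 20, 28 and 36. Ketamine libraries 4, 20 and 28 lay below all saline libraries, library 12 lay just below the lowest of them, and library 36 was higher than all but saline library 3, so the groups overlapped. The fitted log2 fold change was -0.37 (SE 0.05, adjusted p = 0.0520 by edgeR), which is 0.774 times the saline level.

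ENSRNOG00000013953 was at 64.6, 55.8, 66.8, 70.8 and 59.3 CPM with saline and at 42.4, 55.5, 45.5, 44.9 and 59.5 CPM with ketamine, in the same order of libraries. Its log2 fold change was -0.37 (SE 0.06, adjusted p = 0.0520 by edgeR). ENSRNOG00000019447, the most abundant of the 3, was at 240, 190.5, 233.5, 263.5 and 238 CPM with saline and at 165, 198, 169, 151 and 225 CPM with ketamine, with a log2 fold change of -0.37 (SE 0.06, adjusted p = 0.0890 by edgeR). In both, as in the first gene, ketamine libraries 12 and 36 were the 2 highest of their group and saline library 11 was the lowest of its own. The groups overlapped in both genes.

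**Figure D1:**
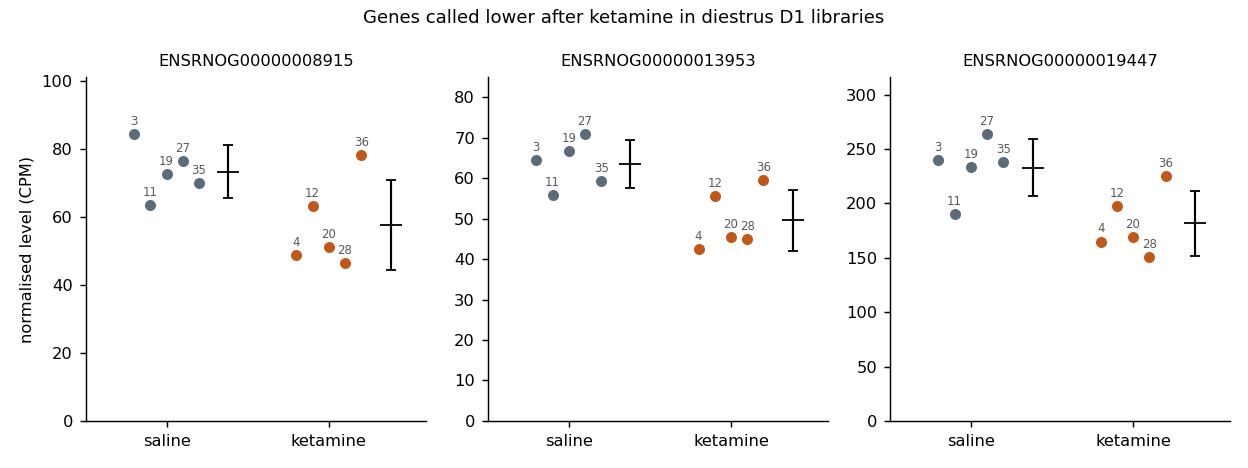
Normalised level (CPM, vertical axis from 0) of the 3 genes with an adjusted p under 0.1, in each of the 5 saline and 5 ketamine libraries of diestrus D1-Cre rats; numbers are library numbers and black bars are means with the SD. In every panel 3 ketamine libraries (4, 20 and 28) sit below all saline libraries, while ketamine libraries 12 and 36 sit among or close to them.

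The calls on these genes rested on the surrogate variables. An exact permutation test of the log2 levels, which uses none and is 2-sided over all ways to divide 10 libraries into 5 and 5, gave p = 0.0635, 0.0238 and 0.0317 for the 3 genes in the order above, unadjusted. Without surrogate variables the log2 fold changes were -0.35, -0.36 and -0.36, so the size of the difference held, but the SE rose to 0.14, 0.10 and 0.11 and no gene in the table passed the threshold. The first surrogate variable took its most extreme values in ketamine library 36 (0.617), saline library 3 (0.472) and saline library 11 (-0.437), and the second in ketamine library 20 (0.556) and saline library 27 (-0.521). None of the 3 genes was called when any of ketamine libraries 4, 20 or 36 or saline libraries 11, 19, 27 or 35 was left out, and ENSRNOG00000019447 alone of them was called without ketamine library 28. All 3 were called without saline library 3 or ketamine library 12.

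The 3 genes were also compared by level across the groups, on the scale normalized over the whole series and as a description. ENSRNOG00000008915 was at 73.5 ± 7.68 CPM in diestrus D1 libraries with saline and 57.8 ± 13.4 CPM with ketamine (SD, n = 5 each). In proestrus D1 libraries it was at 56.9 ± 17.0 CPM with saline and 60.8 ± 7.6 CPM with ketamine, and in diestrus D2 libraries at 95.4 ± 16.9 and 88.8 ± 24.0 CPM. For each of the 3 genes the diestrus D1 saline mean was the highest of the 4 D1 means and was below both D2 means. ENSRNOG00000013953 had means of 63.5 and 49.7 CPM in diestrus D1 libraries with saline and ketamine, 48.0 and 49.0 CPM in proestrus D1 libraries, and 87.1 and 79.8 CPM in diestrus D2 libraries. For ENSRNOG00000019447 the means were 233 and 182, 177 and 186, and 298 and 276 CPM in the same order. The proestrus saline libraries spread widely around these means, from 44.6 to 86.8 CPM for ENSRNOG00000008915, a range that holds all 5 diestrus saline values.

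The size of the differences across all genes was small, and most could be bounded closely. The median absolute log2 fold change was 0.05 and its 95th percentile was 0.30. The 95% interval of the fold change lay wholly within a factor of 1.5 in either direction for 11241 genes (85.1%), and for 8921 of the 8998 genes with a mean of at least 10 CPM (99.1%). Within a factor of 1.25 it lay for 8439 of those 8998 genes (93.8%). Without surrogate variables, the share of the 8998 genes was 98.3% for a factor of 1.5 and 87.6% for a factor of 1.25. These intervals are per gene and unadjusted. The 19 genes whose fitted log2 fold change exceeded 1 in size, 9 higher and 10 lower, had a median level of 0.979 CPM, and none had an adjusted p under 0.311. Precision followed the level, with a median SE of 0.34 on the log2 scale for the 793 genes under 1 CPM and 0.04 for the 2404 genes over 100 CPM.

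**Figure D2:**
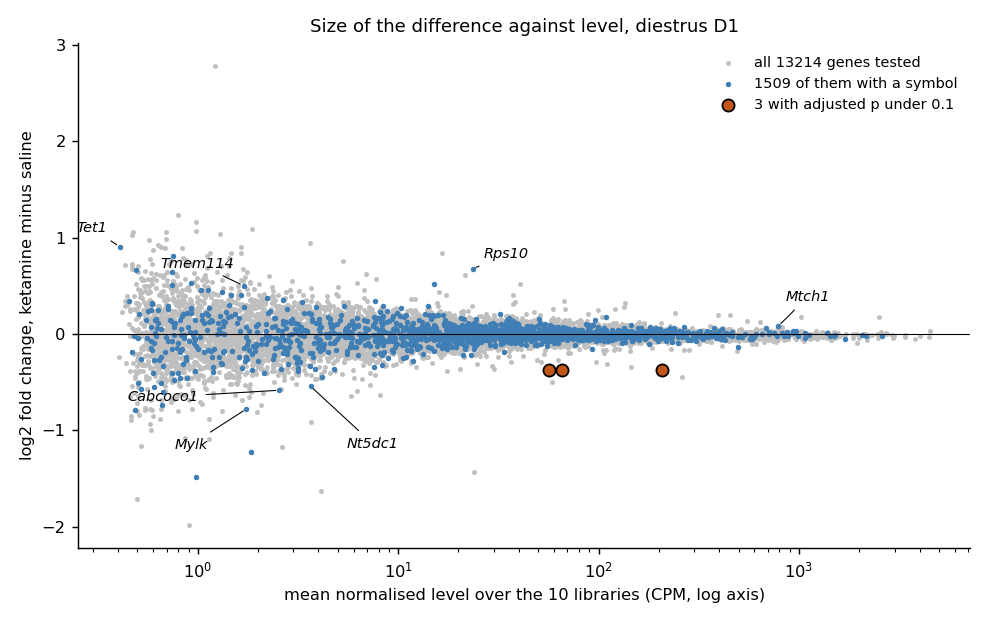
Log2 fold change (ketamine minus saline, vertical axis) against the mean normalised level of each gene over the 10 libraries (CPM, log axis), for the 13214 genes tested; blue points are the 1509 with a symbol and orange points the 3 with an adjusted p under 0.1. The spread narrows as the level rises, and the 3 orange points lie at moderate to high levels with a log2 fold change of -0.37 each.

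Among the 1509 tested genes with a symbol, 0 passed the threshold by edgeR (the lowest adjusted p was 0.9998), and 0 passed by DESeq2 with the same 2 surrogate variables, whose 10 calls over all genes included the 3 above. At an unadjusted p under 0.05 there were 41 (2.72%, against 2.66% of all genes), 21 higher and 20 lower. The groups did not overlap, every library of one being above every library of the other, for 55 of all genes (0.416%), 36 higher and 19 lower, and for 7 of the genes with a symbol (0.464%). The values that follow therefore describe the genes at the edge of the distribution and do not pass a test over all genes.

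Of the genes with a symbol, 3 were higher in every ketamine library than in any saline library. Trim39, which encodes a ubiquitin ligase, was at 19.8, 21.0, 18.5, 19.4 and 19.0 CPM with saline and at 21.3, 21.2, 21.9, 22.1 and 23.1 CPM with ketamine (log2 fold change 0.16, SE 0.07, unadjusted p = 0.0228 by edgeR). Mtch1, a gene for a mitochondrial outer membrane protein, was the most abundant of them, at 777, 771, 788, 787 and 705 CPM with saline and 848, 815, 789, 807 and 800.0 CPM with ketamine, a log2 fold change of 0.08 (SE 0.03). The highest saline library and the lowest ketamine library of Mtch1 were almost level. Tmem114, a little expressed gene for a transmembrane protein, was at 1.39 ± 0.30 CPM with saline and 2.00 ± 0.22 CPM with ketamine (SD, n = 5 each), a log2 fold change of 0.50 (SE 0.21).

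The other 4 were lower in every ketamine library. Nt5dc1, of the 5′-nucleotidase domain family, was at 4.12, 3.95, 4.74, 3.71 and 5.22 CPM with saline and at 2.75, 3.04, 2.88, 3.07 and 3.10 CPM with ketamine, and it had the lowest p of all genes with a symbol (log2 fold change -0.54, SE 0.15, unadjusted p = 0.00222 by edgeR). The ketamine libraries lay close together, with an SD of 0.149 CPM against 0.616 CPM in the saline libraries. Mylk, which encodes the kinase of myosin light chain, was at 2.26, 2.44, 2.64, 1.61 and 2.16 CPM with saline and at 1.59, 1.07, 1.06, 1.24 and 1.45 CPM with ketamine (log2 fold change -0.78, SE 0.22, unadjusted p = 0.00265 by edgeR). Cabcoco1 was at 3.08 ± 0.35 and 2.03 ± 0.45 CPM (log2 fold change -0.58, SE 0.19), and Dusp12, a dual specificity phosphatase gene, was at 8.15 ± 0.31 and 7.06 ± 0.43 CPM (log2 fold change -0.20, SE 0.09). These 7 genes were chosen for this separation, so it is given as a description, at a share (0.464%) near that of all genes (0.416%). On the scale of the whole series, the saline mean of Nt5dc1 in diestrus D1 libraries (4.35 CPM) was above that of proestrus D1 libraries with saline (3.08 CPM) and with ketamine (3.51 CPM), and its ketamine mean (2.97 CPM) was below both.

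**Figure D3:**
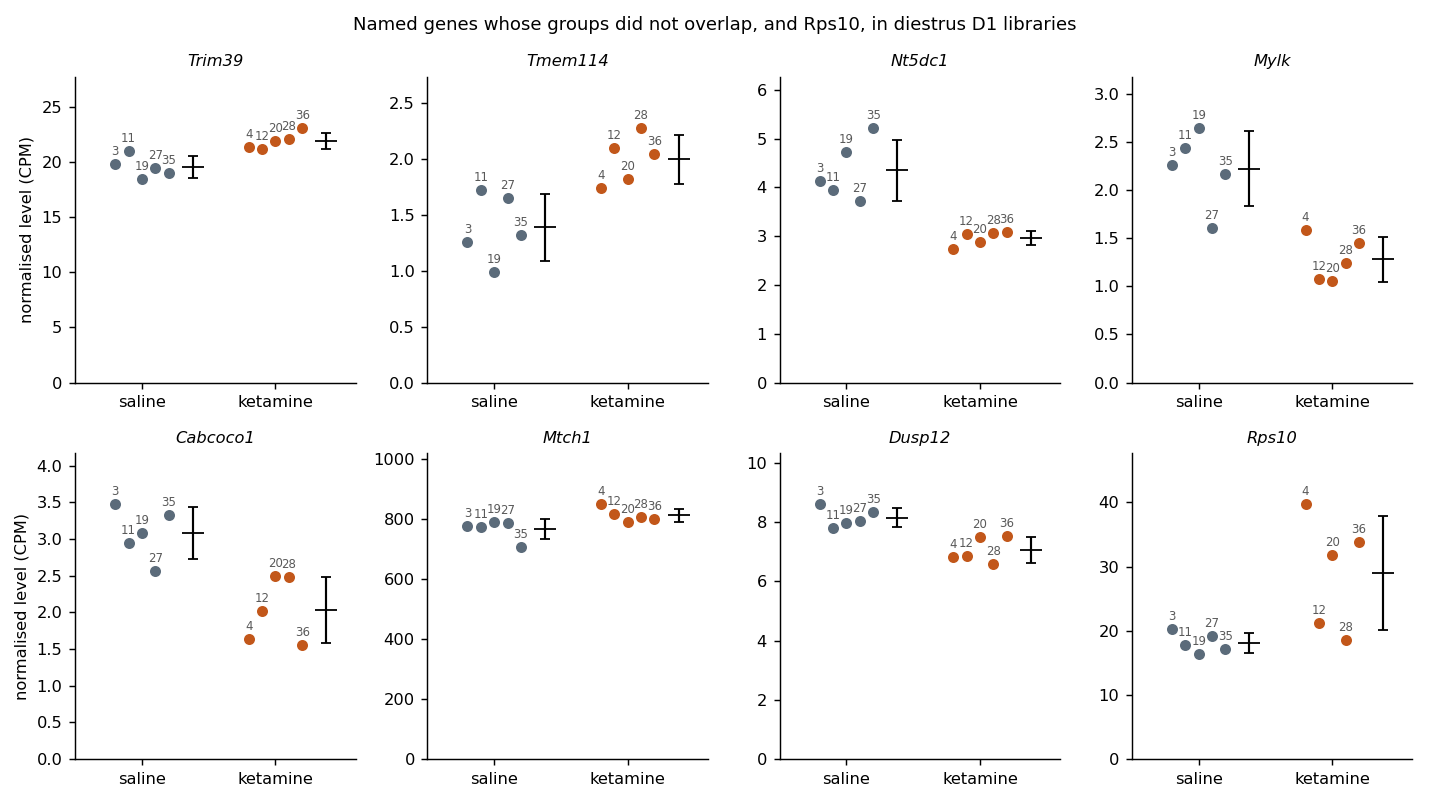
Normalised level (CPM, vertical axis from 0, a scale for each gene) in the 5 saline and 5 ketamine libraries of diestrus D1-Cre rats, for the 7 named genes whose groups did not overlap and for Rps10; numbers are library numbers and black bars are means with the SD. Nt5dc1, Mylk, Cabcoco1 and Dusp12 are lower in all 5 ketamine libraries, Trim39, Tmem114 and Mtch1 are higher in all 5, and Rps10 is higher in ketamine libraries 4, 20 and 36 and near the saline level in 12 and 28.

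Rps10 had the largest fitted difference of the genes with a symbol above 10 CPM. It encodes a protein of the small ribosomal subunit and has processed copies in mammalian genomes. Reads may be shared between near-identical sequences, which would make its counts uncertain and was not tested. It was at 20.2, 17.8, 16.3, 19.2 and 17.2 CPM with saline and at 39.7, 21.2, 31.9, 18.5 and 33.8 CPM with ketamine. Ketamine libraries 4, 20 and 36 were well above every saline library, and libraries 12 and 28 were not. The log2 fold change was 0.67 (SE 0.19, unadjusted p = 0.00839, adjusted p = 0.9998 by edgeR). In the other groups Rps10 spread as widely as in these ketamine libraries with either treatment, from 18.2 to 38.7 CPM in proestrus D1 libraries with saline, from 16.1 to 36.4 CPM in those with ketamine, from 13.7 to 37.3 CPM in diestrus D2 libraries with saline and from 14.9 to 38.3 CPM in those with ketamine. The diestrus D1 saline group was the one with a narrow range, from 16.3 to 20.2 CPM. The other 5 tested genes for proteins of the cytosolic ribosome had log2 fold changes between -0.24 (Rps4x, SE 0.36) and 0.07 (Rpl10a, SE 0.05), none with a p under 0.05.

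Further genes with the lowest unadjusted p were, on the higher side, Ccng1, a cyclin gene that p53 induces, with 102 ± 4.41 CPM with saline and 115 ± 8.49 CPM with ketamine (log2 fold change 0.18, SE 0.05), Srpx (0.27, SE 0.09), Hspbap1 (0.29, SE 0.10) and Chm, which encodes an escort protein for the lipid modification of Rab GTPases (0.17, SE 0.06). Nup54 of the nuclear pore (0.20), Ift81 of intraflagellar transport (0.21), Tmed7 of vesicle traffic from the endoplasmic reticulum (0.10), Cnot6l, a deadenylase of the CCR4-NOT complex (0.20), and the sialyltransferase gene St6gal1 (0.35) followed. In each of these the groups overlapped. On the lower side were Sdk1, a cell adhesion gene (-0.34, SE 0.12), Mcm9, a helicase gene of DNA repair (-0.32, SE 0.11), and Pdgfra, the receptor gene that marks oligodendrocyte precursors, at 5.35 ± 0.76 CPM with saline and 4.20 ± 0.68 CPM with ketamine (-0.36, SE 0.13). Mog, a myelin gene of that lineage, had a log2 fold change of -0.01 (SE 0.13). The set ended with the aldehyde dehydrogenase gene Aldh9a1 (-0.19), Eif2b1, a subunit of the exchange factor for initiation factor eIF2 (-0.22), Srebf1, a regulator of lipid synthesis (-0.18), Acot9, an acyl-CoA thioesterase gene (-0.12), and the transcription factor gene Etv5 (-0.12).

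Few genes close to the action of ketamine and dopamine could be named, and those named did not pass the test. They included 1 of 7 NMDA receptor subunit genes and 5 of the 28 genes listed for dopamine receptor signalling. Grin2c, the only NMDA receptor subunit gene with a paired symbol, was at 11.8 ± 0.83 CPM with saline and 11.0 ± 0.98 CPM with ketamine, a log2 fold change of -0.10 with a 95% interval from -0.30 to 0.10. The kainate receptor genes Grik1 and Grik2 and the metabotropic receptor gene Grm4 had log2 fold changes between -0.05 and -0.04, with intervals within -0.23 and 0.14. Of 3 postsynaptic density genes none had a p under 0.05, and Dlg3, a scaffold gene, had a log2 fold change of -0.04 (interval -0.14 to 0.06). Among 5 genes of dopamine receptor signalling, 1 had a p under 0.05, against 2.66% of all genes. This was Rasd1, a small GTPase gene, at 22.4, 19.6, 23.8, 24.6 and 22.5 CPM with saline and 18.8, 21.7, 16.7, 23.2 and 22.9 CPM with ketamine (log2 fold change -0.16, SE 0.07, unadjusted p = 0.0301 by edgeR), whose exact permutation p was 0.214. Adcy5, the main adenylyl cyclase of striatal neurons, was at 783 ± 92.5 CPM with saline and 775 ± 81.6 CPM with ketamine (log2 fold change -0.02, interval -0.13 to 0.09), and Rgs9, which shortens dopamine receptor signalling, was at 310 ± 35.3 and 301 ± 46.1 CPM (-0.07, interval -0.21 to 0.07).

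The 8 tested GABA receptor genes had log2 fold changes between -0.10 and 0.03 with a median of -0.02, 3 positive and 5 negative, against a median of 0.00 over all genes tested. Gabbr1, the most abundant of them, had an interval from -0.07 to 0.04. Of 4 genes of mTOR signalling and translation control, which ketamine is known to engage in other brain regions, none had a p under 0.05. Eif4g1, a scaffold for initiation factors, had the lowest p of them (0.0732), with a log2 fold change of -0.06 (interval -0.14 to 0.01), and Rps6kb1, the S6 kinase gene, had one of 0.02 (interval -0.09 to 0.13). None of the 5 SNARE and synaptotagmin genes, 5 potassium channel genes, 10 oxidative phosphorylation genes, 7 proteasome genes or 5 heat shock and chaperone genes had a p under 0.05 either, and the medians of these groups lay between -0.04 and 0.01. The 10 oxidative phosphorylation genes had log2 fold changes between -0.06 and 0.07. The 3 tested genes of m6A RNA methylation lay between -0.03 and 0.02, and Hdac2, a histone deacetylase gene, had an interval from -0.10 to 0.10. Larger fitted values in these lists came from genes of low level. Tet1, which encodes an enzyme that oxidizes methylated DNA, was at 0.29 ± 0.22 CPM with saline and 0.53 ± 0.17 CPM with ketamine (log2 fold change 0.90, interval -0.06 to 1.87). RT1-N3, of the multigene MHC class I family whose near-identical members may share reads, was at 1.41 ± 0.87 and 0.56 ± 0.69 CPM (-1.48, interval -2.96 to 0.00), the other 6 genes of interferon response and antigen presentation lying between -0.33 and 0.24. Cyp19a1, the aromatase gene that makes estradiol, was at 2.81 ± 1.00 and 2.54 ± 0.66 CPM (-0.20, interval -0.70 to 0.30).

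Of 7 immediate early and late response genes, which neuronal activity induces, 6 had a positive log2 fold change and none a p under 0.05, with a median of 0.11. That median was 0.02 without saline library 11, 0.07 without saline library 27, 0.22 without saline library 3 and 0.27 without ketamine library 36. The tissue was taken 30 min after return to the test chamber. Egr2, a zinc finger transcription factor gene, was at 16.6, 4.50, 10.3, 16.4 and 13.0 CPM with saline and at 18.6, 15.8, 10.1, 27.8 and 17.7 CPM with ketamine (log2 fold change 0.52, SE 0.28, unadjusted p = 0.102 by edgeR). The lowest value was in saline library 11 and the highest in ketamine library 28, and the groups overlapped. Sik1, a kinase gene that cAMP induces, had a log2 fold change of 0.29 (SE 0.19), Nptx2 one of 0.15 (SE 0.23) and Ptgs2 one of -0.04 (SE 0.11). The intervals of Egr2 (-0.13 to 1.17) and Sik1 (-0.15 to 0.72) include differences of more than 1.5 times. For Egr2 the difference between the stages, described next, had an unadjusted interaction p of 0.0267 by edgeR (log2 fold change of -0.23 in proestrus). Over the list, 5 of 7 members had a positive difference between the stages and 2 a negative one, from -0.31 to 0.87. In proestrus 1 of the 7 members had an unadjusted p under 0.05 by edgeR and was higher with ketamine, against 3.68% of all genes.

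**Figure D4:**
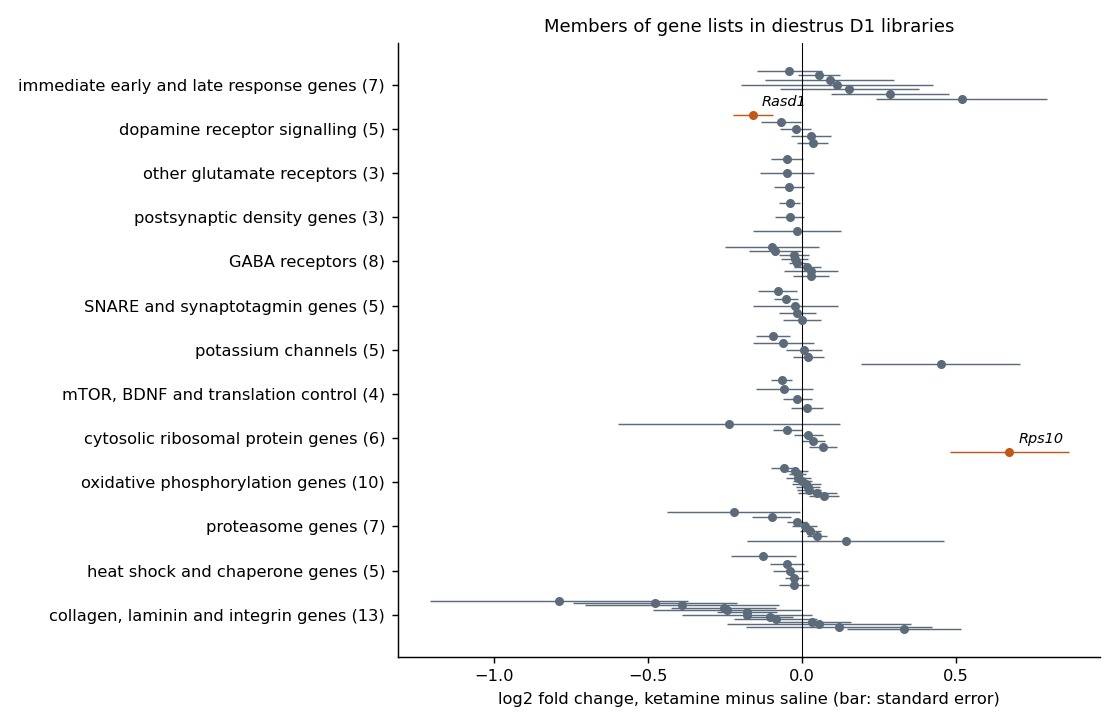
Log2 fold change (ketamine minus saline, horizontal axis) with its standard error for each tested member of 13 gene lists in diestrus D1 libraries; the number of members is in brackets after the name of each list, and orange points have an unadjusted p under 0.05. Only Rasd1 and Rps10 are orange, and most members of the receptor, synaptic and oxidative phosphorylation lists lie within 0.10 of 0.

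Whether the ketamine difference itself differed by cycle stage was tested with an interaction term over the 20 D1 libraries, the 10 described so far and 10 from proestrus. Of 13593 genes, none passed an adjusted p under 0.1 by edgeR, 659 (4.85%) had an unadjusted p under 0.05, 354 relatively higher (2.6%) and 305 relatively lower (2.24%) after ketamine in diestrus, and DESeq2 with the same 2 surrogate variables called 6. The number at an unadjusted p under 0.05 was 430 without surrogate variables and 1201 with the 4 that the num.sv function of sva estimates for this fit, with which edgeR called 5 genes. Of the genes with a symbol, Col11a2, a collagen gene, came closest. In the proestrus libraries alone, 764 of 13183 genes (5.8%) had an unadjusted p under 0.05, 485 higher (3.68%) and 279 lower (2.12%), and 1 (0.00759%), Col11a2, passed the threshold. In diestrus D1 libraries Col11a2 was at 12.3, 12.6, 11.8, 13.7 and 10.9 CPM with saline and at 10.4, 10.5, 11.6, 8.97 and 13.0 CPM with ketamine, a log2 fold change of -0.18 (SE 0.10), against one of 0.88 in proestrus. The difference between these was -1.03 (SE 0.19, adjusted p = 0.111 by edgeR). Over the alternatives the adjusted p ranged from 0.000698 with DESeq2 to 1 in a single model of all 39 libraries. In diestrus none of the members of the collagen, laminin and integrin list had a p under 0.05, and there was a median log2 fold change of -0.18 over 13 members, 9 of them negative, which became -0.17 to -0.08 on leaving out 1 library and was nearest to 0 without saline library 19. In proestrus 4 of 12 had one, all higher (Col11a2, Col5a2, Col6a1 and Col1a1), with a median of 0.13. For Col5a2 the log2 fold change was -0.18 in diestrus and 0.73 in proestrus, with an unadjusted interaction p of 0.00426 by edgeR. For Tmem119, a microglia marker, the values were -0.18 and 0.89 with an unadjusted interaction p of 0.0145, at levels near 1 CPM. Other markers of cells outside the pulldown target did not share 1 direction. Aif1, the other microglia marker, was at -0.07 in diestrus and 0.08 in proestrus (with an unadjusted interaction p of 0.708 by edgeR). Of 4 astrocyte markers 2 had a negative interaction and 2 a positive one. Gja1, a gap junction gene, was at -0.06 and 0.22 (with an unadjusted interaction p of 0.0462 by edgeR), and Slc4a4, a bicarbonate transporter gene, was at 0.21 and -0.01 with an interaction difference of 0.32. The endothelial and mural markers Flt1 and Rgs5 had interaction differences of -0.43 and 0.11, neither with a p under 0.05. All 3 oligodendrocyte lineage markers were positive in proestrus, with a median of 0.13 and none with a p under 0.05, and had negative interactions, of which that of Pdgfra had an unadjusted p of 0.0311 by edgeR. The part of these cells in the collagen values was not tested.

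The remaining genes with the lowest interaction p had smaller differences. Usp42, a deubiquitinase gene (0.20 in diestrus and -0.18 in proestrus), Clk4, a kinase gene of splicing (0.04 and -0.33), and Mcts1, a translation factor gene (0.06 and -0.15), were relatively higher after ketamine in diestrus. Rasal1, a Ras GTPase activator gene (-0.06 and 0.31), and Nfe2l2, the NRF2 gene of the oxidative stress response (-0.40 and 0.37), were relatively lower. Their unadjusted interaction p ranged from 0.000761 for Rasal1 to 0.00614 for Mcts1, and none had an adjusted p under 0.982 by edgeR. The 10 oxidative phosphorylation genes had a median log2 fold change of 0.01 in diestrus, 6 positive, and of -0.07 in proestrus, all negative with 3 at a p under 0.05 (2.12% of all genes were lower at that p). For Sdhc, a subunit gene of complex II, the unadjusted interaction p was 0.0212, and for the other 9 it was not under 0.05.

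The same test by cell type, over the 10 diestrus D1 and 10 diestrus D2 libraries, gave 0 genes of 13738 at an adjusted p under 0.1 by edgeR, 347 (2.53%) at an unadjusted p under 0.05, 166 relatively higher (1.21%) and 181 relatively lower (1.32%) in D1 libraries, and 1 by DESeq2 with 2 surrogate variables. In the D2 libraries alone, 355 of 13455 genes (2.64%) had an unadjusted p under 0.05, 162 higher (1.2%) and 193 lower (1.43%). D2 saline library 39 held 2396517 counts, against a median of 21396673 in its group. Without it the count of genes past the threshold was 0 as well, and 420 had an unadjusted p under 0.05. The lowest interaction p of the genes with a symbol belonged to Flrt2, a guidance and adhesion gene, with a log2 fold change of 0.06 in D1 and -0.27 in D2 libraries (unadjusted p = 0.00166 by edgeR). Mylk followed on the other side, with -0.78 in D1 and 0.21 in D2 libraries (unadjusted p = 0.00486 by edgeR), then Tspan6 (-0.05 and 0.27) and, under 1 CPM, Ccdc74a (-0.27 and 1.38). Mylk was little expressed in the D2 libraries on the scale of the whole series. It was at 1.26 ± 0.88 CPM with saline, where the lowest library was at 0 CPM, and at 1.96 ± 0.20 CPM with ketamine. Zfp394 (0.20 and -0.16) and Chm (0.17 and -0.08) followed Flrt2. Of the immediate early and late response genes, 7 of 7 had a positive difference between the cell types, with a median of 0.32 on the log2 scale, and 1 of them, Sik1, had an unadjusted p under 0.05 (0.47, unadjusted p = 0.0463 by edgeR). Over all genes tested 7188 of 13738 were positive, with a median of 0.01. The median difference of this list was not refitted with each library left out. The 3 genes called lower in diestrus D1 libraries had log2 fold changes of 0.11, 0.03 and 0.05 in diestrus D2 libraries and of 0.11, 0.05 and 0.10 in proestrus D1 libraries. These values were fitted with 2 surrogate variables in the model. By mean level on the scale of the whole series, all 3 were lower with ketamine in diestrus D2 libraries too. Their saline and ketamine means there were 95.4 and 88.8, 87.1 and 79.8, and 298 and 276 CPM. The interaction differences by cell type were -0.48, -0.40 and -0.42, with unadjusted p from 0.0100 to 0.0232 and adjusted p of 0.9999 by edgeR. By cycle they were -0.39, -0.34 and -0.39, with unadjusted p from 0.0887 to 0.162. These calls are therefore not shown to be particular to D1-MSNs or to diestrus. Both interaction tests use the same 10 diestrus D1 libraries.

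**Figure D5:**
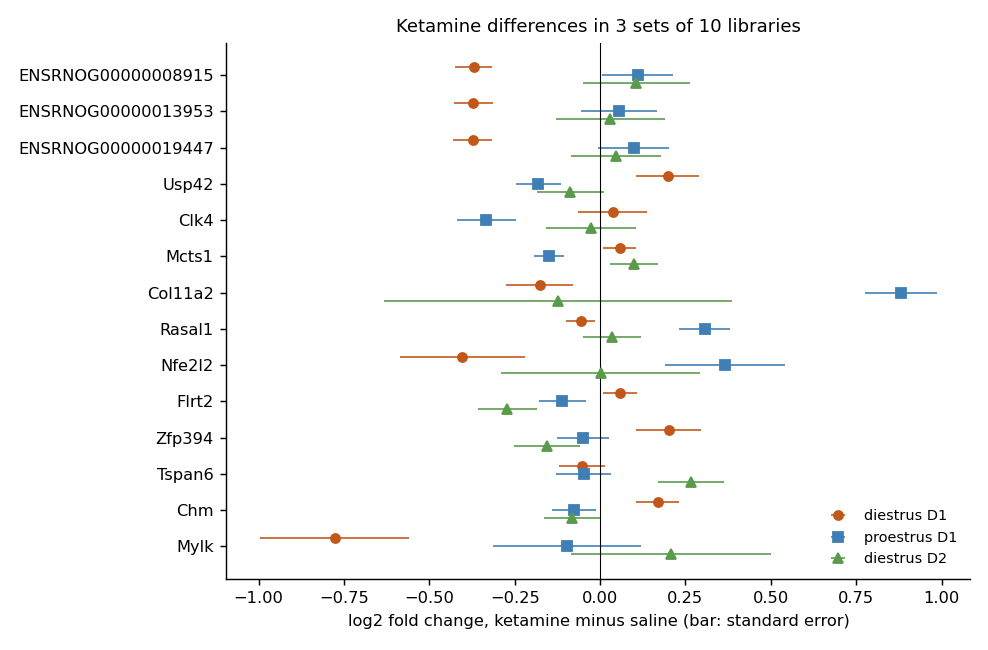
Log2 fold change (ketamine minus saline, horizontal axis) with its standard error in diestrus D1 (circles), proestrus D1 (squares) and diestrus D2 libraries (triangles), each from 10 libraries, for the 3 genes called in diestrus D1 and for genes with a symbol chosen for a low interaction p. Of the genes plotted, which leave out Ccdc74a at under 1 CPM, Col11a2 shows the widest separation, at -0.18 in diestrus D1 and 0.88 in proestrus D1. The 3 called genes have fitted values below 0 only in diestrus D1, although their mean levels were lower with ketamine in diestrus D2 as well.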

How the data were processed

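The members and gene lists were chosen with earlier results of these data known. The authors trimmed reads with fastp 0.23.4, quantified them with Salmon 1.10.2 on mRatBN7.2 and summed transcripts per gene. The deposited values are expected counts without normalization, held as whole numbers, 1 library per rat; the labels place no 2 libraries in a pair. For each comparison, genes were filtered with edgeR 4.0.16 (filterByExpr, minimum count 10), scaled by TMM, and tested by its quasi-likelihood method with 2 surrogate variables in the model and p adjusted after Benjamini and Hochberg (svaseq, sva 3.50.0; R 4.3.3). Genes were called at an adjusted p under 0.1, as in the study. SEs come from the F statistic, and 95% intervals from the SE and the gene's degrees of freedom. CPM values in the text are TMM-normalized over the 10 libraries unless stated. Column headings are library numbers, matched to the titles. The steps were tested on simulated data.

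Genes were named by rule: every called gene, the 12 genes with a symbol of lowest p in each direction, those whose groups did not overlap (mean of at least 1 CPM, up to 5 each way), chosen receptor and marker genes, the member of lowest p in each list where that p was under 0.05, and the 3 lowest in each direction of each interaction. Other list members and levels in other groups were chosen after their values were seen. Symbols came from the gene columns of the study's tables. Alternatives were other numbers of surrogate variables, DESeq2 1.42.0, other scaling and filters, 1 model of all 39 libraries, blocks of 8 library numbers, and each library left out. Some genes are not reported here.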

Additional observations from a re-analysis of the deposited data

Results flagged for a closer look

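Among the levels of the named genes, the total counts and the summed markers, 98 groups of 5 libraries were examined for 1 library far from the others, of which chance alone would pick out about 1 in 20, and 2 stood out. Mtch1 was at 704.9 CPM in saline library 35, below the next saline library at 771 CPM, and that gap made up 0.80 of the range of the group. Rasal1 was at 98.83 CPM in saline library 3, above the next at 84.3 CPM (0.832 of the range). Neither gene passed the test over all genes, and no cause was tested. No gene had an adjusted p under 0.1 in either interaction by edgeR with 2 surrogate variables; with 4 of them, 5 genes did in the interaction with cycle.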

How the results depend on the processing

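The count of 3 genes in diestrus D1 libraries became 0 with no or 1 surrogate variable, with DESeq2 without surrogate variables, in the model of all 39 libraries, with blocks of 8 library numbers and at an adjusted p under 0.05. It became 10 with DESeq2 and 2 surrogate variables, the 3 genes among them. Leaving out each library gave from 0 to 5, with 0 on leaving out ketamine library 4, 20 or 36 or saline library 11, 19, 27 or 35; without saline library 3 it was 5. DESeq2 size factors and no low-count filter each gave 2 and the stricter filter 3. In all of these fits the 3 genes stayed lower with ketamine, with log2 fold changes from -0.42 to -0.32. The number of genes at an unadjusted p under 0.05 was 207 without surrogate variables. The cause was not tested.

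For the interaction with cycle, the count of 0 became 5 with the 4 surrogate variables that num.sv gives, 6 with DESeq2 and 2 of them, 1 with DESeq2 and none, and from 0 to 4 on leaving out 1 library; it was 1 without proestrus saline library 1 or 9, proestrus ketamine library 34, diestrus saline library 35 or diestrus ketamine library 36, and 4 without proestrus saline library 33, when the 3 genes above passed with adjusted p of 0.0777, 0.0162 and 0.0834. For the interaction with cell type it became 1 with DESeq2 and 2 surrogate variables and remained 0 on leaving out each library. Of single genes, Clk4 in diestrus D1 libraries ranged from -0.025 to 0.096 on leaving out 1 library, below 0 without ketamine library 4 (-0.012) or saline library 11 (-0.025) or 19 (-0.023), and the Grin2c interaction with cell type ranged from -0.53 to 0.0097, above 0 without D2 saline library 15. The other genes that the naming rule picked kept their direction; list members named beyond it were not refitted one by one. The median of the collagen list was -0.08 without saline library 19, and that of the astrocyte markers 0.08 without saline library 27. No paired analysis was possible because no label ties a ketamine rat to a saline rat. The blocks of 8 library numbers each hold 1 saline and 1 ketamine library of diestrus D1-Cre rats, but pair them by number alone; that fit gave 0 calls and 214 genes at an unadjusted p under 0.05.

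Depth was even across the 10 libraries. Genes under 1 CPM, with a median SE of 0.34 on the log2 scale, could hide differences of 1.5 times. Only 1509 tested genes could be named, so most gene families are described by a few members. Each group held 5 rats. The edgeR p-values with 2 surrogate variables measure the spread between rats that is left once those variables are fitted. The full spread between rats can be larger. For ENSRNOG00000008915 the SE was 0.05 with the surrogate variables and 0.14 without them.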
